A study of Mus musculus with 77 samples.

Results

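Whole lungs of DBA/2J mice were compared with whole lungs of C57BL/6J mice (B6) at postnatal day 14, all raised in room air. The comparison takes the 4 DBA and the 4 B6 room-air RNA libraries of 1 expression table, 8 of the series' 77 samples, chosen by strain and air and not by any measured value. The table lists 24940 genes, and the 15623 that reached at least 1 TPM, a transcript abundance corrected for length and scaled to a fixed library total, in 3 of its lung libraries were tested. The series asks how newborn lungs and macrophages respond to high oxygen. It also holds lungs given 75% oxygen from within 24 hours of birth to day 14 (3 B6, 4 DBA), day-14 room-air lungs labelled Trem2 knockout (4), a second set of day-14 room-air B6 lungs (2) and bone marrow-derived macrophages (BMDM) of B6 and of DBA mice cultured for 24 hours in room air (2 of each strain), all used below only for comparison. Trem2 was at 1.13, 1.05, 2.75 and 1.45 TPM in the libraries labelled knockout, so 1 of them lay above the lowest B6 library. The labels give no transgene, drug or injury for the 8 lungs. Lungs were flushed with cold buffer through the heart before dissection, per the labels' protocol, and no label says that each library is its own animal. The p-values therefore cover only the spread among libraries within groups, which may in part be technical.

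C57BL/6J and DBA/2J are old inbred strains that differ at many bases and in many well-studied alleles, including the MHC haplotype on chromosome 17. At this age the mouse lung is building alveoli: alveolar type 2 cells make surfactant, type 1 cells form the thin gas-exchange surface, fibroblasts lay down elastin and collagen, and club and ciliated cells line the airways. The mm10 genome used for alignment derives from C57BL/6J, and what this does to counts of DBA transcripts that differ from it in sequence was not tested.

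Whole-read steps in the values put the depth at 23.3 to 41.1 M reads in the B6 libraries and 12.5 to 25.4 M in the DBA libraries. Correlations of log2(TPM + 1) were 0.974 to 0.987 within B6, 0.964 to 0.981 within DBA and 0.889 to 0.938 between the strains. Values below are given in a fixed order: B6 libraries 1 and 2 are named male, B6 libraries 3 and 4 are named female and carry a later date code, and all 4 DBA libraries are named male, with 3 and 4 under a later date code than 1 and 2. Xist, the RNA of the inactive X chromosome, was at 95.5 and 115.9 TPM in the libraries named female and at most 0.77 TPM in the other 6. B6 and DBA share no date code, so strain and date code cannot be told apart. Lung marker genes were present in both strains: the type 1 marker Ager was at 1247 TPM in B6 and 912 TPM in DBA, and Pecam1 of endothelium at 417 and 331 TPM. Actb, the cytoplasmic actin used as a reference gene, was at 2719 TPM in B6 and 2691 TPM in DBA. Gapdh, another common reference gene, was at only 0.766 TPM in B6 and 1.19 TPM in DBA, too low to serve as one. Why Gapdh was so low in these values was not tested.

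Scgb1a1, the main secreted protein of airway club cells, took a far larger part of the DBA libraries (chr19:9083642-9087956, minus strand, mm10). It was at 7889, 10909, 7635 and 7739 TPM in B6 and at 49453, 29189, 89421 and 104120 TPM in DBA. All 4 DBA libraries lay above all 4 B6 libraries, and within DBA the libraries of the later date code were the highest. Its log2 fold change on the log2(TPM + 1) scale, which all fold changes here use, was 2.84 ± 0.41 (SE, adjusted p = 3.66e-05, limma with Benjamini-Hochberg adjustment). With no filter on low values its adjusted p was 0.1996, the fold change being the same. As a share of the summed TPM of a library's listed transcripts it was 1.59% ± 0.296 (SD, n = 4) in B6 and 11.9% ± 5.91 in DBA. The difference of 10.4 percentage points gave p = 0.0286 in an exact two-sided permutation test, the smallest that 4 against 4 libraries allow. Hyperoxic lungs had shares of 2.70% to 2.79% in B6 and 5.55% to 7.28% in DBA. The other room-air lungs on the B6 side were at 1.34% to 2.72% (labelled Trem2 knockout) and at 4.72% and 4.05% (second B6 set). In bulk tissue, more cells of a type and more RNA per cell cannot be told apart.

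**Figure D1:**
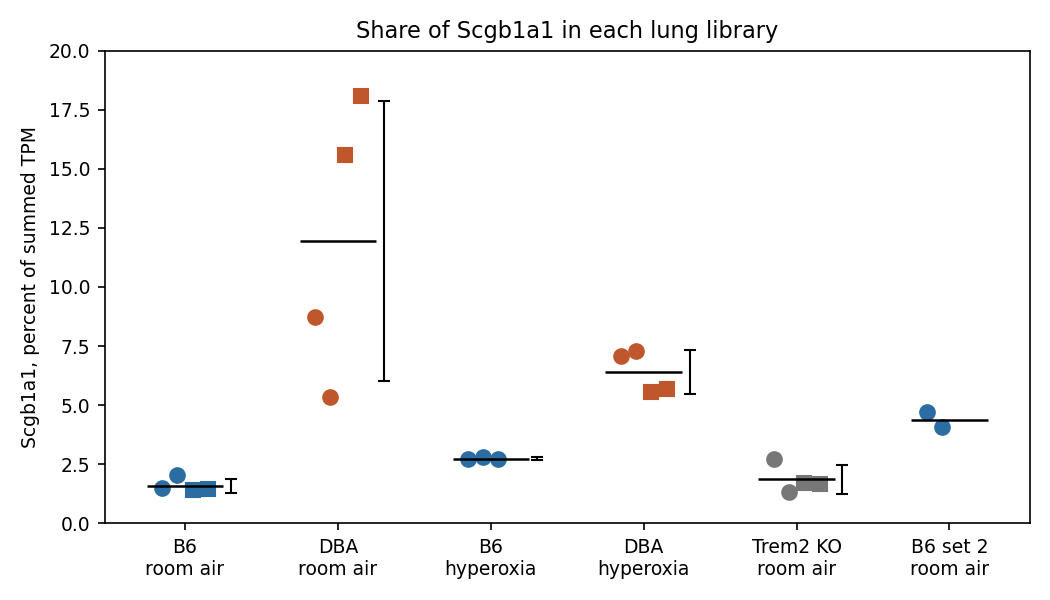
Share of Scgb1a1 in the summed TPM of each lung library (percent, y axis) by group (x axis). Each point is 1 library, its shape gives the date code, the line is the group mean and the bar the SD. The DBA room-air libraries sit between 5.35% and 18.1%, above the B6 room-air libraries at 1.40% to 2.03%.

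Because TPM values share 1 total, a transcript this abundant leaves less of it for the others. The listed TPM other than Scgb1a1 summed to 521450 to 535780 in B6 and to 515770 and 516680 in DBA libraries 1 and 2, but to 483990 and 471690 in DBA libraries 3 and 4. The low sums are those of the 2 libraries of the later date code. As deposited, 8804 genes (56.4% of those tested) differed between the strains at an adjusted p under 0.05, of which 3365 (21.5%) were higher and 5439 (34.8%) lower in DBA. The median log2 fold change over all genes was -0.12. With Scgb1a1 left out and the rest rescaled, it was -0.04, and the split became 3939 higher and 4640 lower. Leaving out the 20 most abundant transcripts gave 4085 and 4649, quantile normalization gave 4215 and 4587, and median-of-ratios scaling gave 4387 and 4315. The excess of lower genes narrowed under the first 3 of these scalings. Median-of-ratios scaling centres the median difference by construction, so its even split is no separate evidence. The total ranged only from 8579 to 8804. Differences below are given as deposited and are best read against the median of -0.12, and the counts in each gene list against the 21.5% higher and 34.8% lower of all genes. In 7688 genes (49.2%) the 4 and 4 libraries did not overlap, and 1850 genes (11.8%) were called with a log2 fold change of at least 1 in either direction, 754 higher and 1096 lower.

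**Figure D2:**
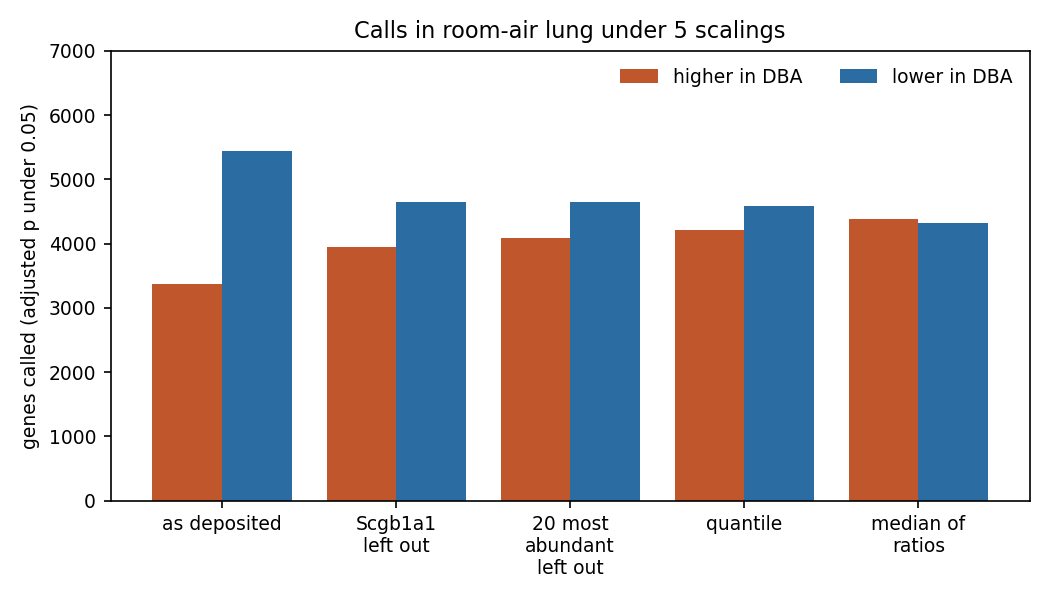
Genes called higher and lower in DBA room-air lung (y axis, adjusted p under 0.05) under 5 scalings of the same TPM values (x axis). The bars move from 3365 against 5439 as deposited to 4387 against 4315 with median-of-ratios scaling.

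Genes with known allele differences between the strains were checked first. Of 22 such genes listed from background knowledge, 17 were tested, and 8 were higher and 6 lower in DBA, the lower share being near that of all genes. The 8 include Hbb-bs and Hbb-b1, which have overlapping positions and nearly equal values and so are not separate. H2-Ea-ps, the class II E alpha chain gene that is silent in the B6 haplotype (chr17:34342212-34344645, minus strand), was at 0, 0, 0.067 and 0.08 TPM in B6 and at 107.8, 137.8, 121.8 and 129.2 TPM in DBA. No gene was higher by a larger log2 fold change among those named by rule (6.91 ± 0.17, adjusted p = 1.77e-13). It was at 0 to 0.511 TPM in second-set lungs and those labelled Trem2 knockout, at 91.5 to 179 TPM in hyperoxic DBA lungs, and at 152.6 and 134.5 TPM in DBA macrophages.

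Hc, which encodes complement C5 and carries a frameshift in DBA/2J, averaged 274 ± 49.0 TPM (SD) in B6 and 40.2 ± 7.88 TPM in DBA (log2 fold change -2.74). Gpnmb, a lysosomal glycoprotein with a stop codon in DBA/2J, was at 1.89 and 0.316 TPM (-1.12). Myo5a, the motor protein of the dilute coat colour, was at 6.76 and 2.69 TPM (-1.08). All 3 lay lower in every DBA library than in any of the 4 B6 libraries. In the second set of room-air B6 lungs, Hc and Gpnmb were also above every DBA library. Myo5a was at 3.64 and 3.17 TPM there, beside 3.61 TPM in the highest DBA library. In BMDM Myo5a ran the other way, averaging 60.6 TPM in B6 and 116.8 TPM in DBA (0.93). Klrd1, the CD94 chain of natural killer cell receptors that DBA/2J lacks, was at 0 TPM in 3 of 4 DBA libraries and at 0.875 to 3.14 TPM in B6. In the other direction, Nnt, the mitochondrial transhydrogenase with an exon deletion in C57BL/6J, was at 11.04 and 19.0 TPM (0.73), and Glo1, a methylglyoxal-detoxifying enzyme duplicated in DBA/2J, at 41.0 and 63.9 TPM (0.63). Alad, a heme synthesis enzyme also duplicated in DBA/2J, was at 10.2 ± 0.506 TPM in B6 and 35.6 ± 3.56 TPM in DBA (1.71 ± 0.11, adjusted p = 1.47e-08). Ahr, the aryl hydrocarbon receptor, averaged 60.6 TPM in B6 and 28.3 TPM in DBA (-1.08). Apoa2, a lipoprotein gene with a strain-specific allele, did not pass (-0.33, adjusted p = 0.113).

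Gene families at these loci differed between the strains. Of 23 MHC class I genes and their loading factors, all tested, 13 were higher and 2 lower, with a median log2 fold change of 0.55. H2-Q10, a secreted class I molecule, averaged 0.833 TPM in B6 and 5.47 TPM in DBA (1.75), and H2-K1, a classical antigen-presenting chain, 189 ± 37.6 and 337 ± 43.1 TPM (0.84). Without the DBA libraries of the earlier date code 8 were called higher. Class I genes are close copies of one another and differ between haplotypes, so the share of reads each received is uncertain. In the Ifi200 family of DNA-sensing proteins on chromosome 1, 11 of 15 listed genes were tested, with 8 lower and 1 higher. Mndal averaged 32.1 TPM in B6 and 0.291 TPM in DBA (-4.68), Ifi208 12.9 and 0.625 TPM (-3.07), and Ifi202b, the member that was higher, 0.0875 and 4.29 TPM (2.29). On chromosome 7, Trim12a, a relative of the Trim5 antiviral restriction factors, averaged 29.7 TPM in B6 and 0.0325 TPM in DBA (-4.89).

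C7, a terminal complement component, was at 163, 155, 230.5 and 208 TPM in B6 and at 2.98, 3.52, 3.25 and 8.67 TPM in DBA (chr15:4988762-5063773, minus strand). Every B6 library was far above every DBA library, and the log2 fold change was -5.17 ± 0.22 (adjusted p = 1.91e-10). Of 25 complement genes tested of 30 listed, 12 were lower and 4 higher, beside 34.8% and 21.5% of all genes. Chil3, a chitinase-like protein secreted by alveolar macrophages (chr3:106147554-106167564, minus strand), was at 234, 789.7, 203 and 89.3 TPM in B6 and at 14.7, 2.98, 13.9 and 2.04 TPM in DBA. The groups did not overlap although B6 varied widely (-5.05 ± 0.85, adjusted p = 0.000146). Vipr2, a receptor for vasoactive intestinal peptide, averaged 21.5 ± 1.92 and 0.899 ± 0.520 TPM (-3.60). Ndnf, a secreted neurotrophic factor, averaged 145 ± 15.8 and 13.5 ± 9.45 TPM (-3.52).

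On the higher side, Serpina1b, an alpha-1 antitrypsin paralog, was at 0, 0, 0.073 and 0 TPM in B6 and at 18.5, 25.5, 21.1 and 14.4 TPM in DBA (chr12:103728156-103738189, minus strand). It was near 0 in every B6 library (4.33 ± 0.16, adjusted p = 3.93e-11), and its sequence is shared in large part with other Serpina1 copies. Stab2, a scavenger receptor for hyaluronan, averaged 1.23 ± 0.149 TPM in B6 and 25.1 ± 8.35 TPM in DBA (3.50). Mrap2, an accessory protein of melanocortin receptors, averaged 0.444 and 20.7 TPM (3.93). Mlycd, the malonyl-CoA decarboxylase, was at 12.3 ± 1.68 and 116 ± 27.1 TPM (3.12), and Cyp2b10, a xenobiotic-metabolizing cytochrome P450, at 12.3 ± 3.59 and 120.1 ± 20.8 TPM (3.21). These DBA values were above every B6 library for each of the 5 genes. Eif2s3y was among the 12 largest rises but lies on the Y chromosome and followed the sex in the library names, at 40.6 to 53.5 TPM in B6 males and at 0.35 TPM in B6 females.

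Several of the largest differences belong to genes with near-identical copies elsewhere in the genome. Rpl29, a large-subunit ribosomal protein, was at 165 to 199.99 TPM in B6 and 1.16 to 1.91 TPM in DBA (-6.25), while Rpl38 averaged 8.80 and 199.8 TPM (4.35) and Atp5g2, a subunit of mitochondrial ATP synthase, 1.15 and 32.0 TPM (3.95). Of 80 ribosomal protein genes tested, 29 were higher and 25 lower with a median of 0.10. The 5 with a log2 fold change of at least 2 in either direction were called with the same sign in hyperoxic lung and in BMDM. Reads of such genes can be split between copies, so these values are uncertain.

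**Figure D3:**
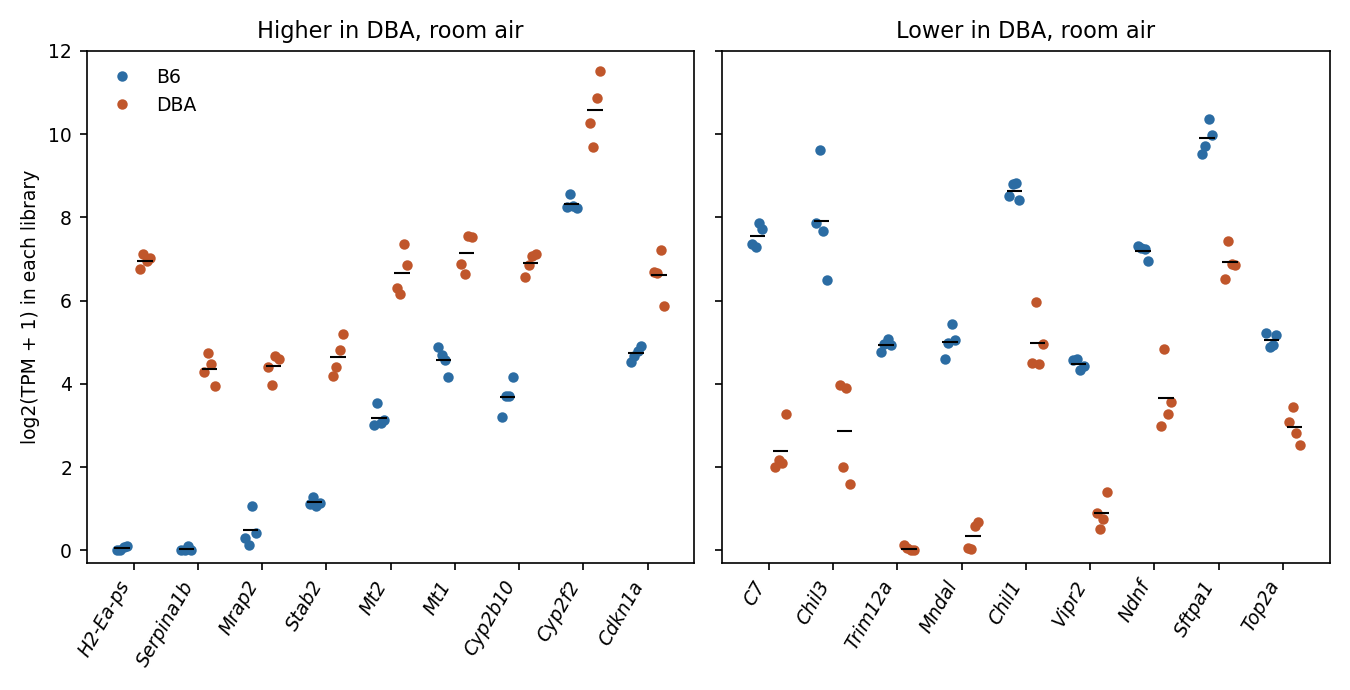
Level of 18 leading genes (x axis) in each room-air lung library (y axis, log2(TPM + 1)), with B6 and DBA in separate colours and a line at each group mean. For H2-Ea-ps, C7, Serpina1b, Trim12a and Stab2 the DBA and B6 points are separated.

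The metallothioneins Mt1 and Mt2, small proteins that bind zinc and are induced by metals, glucocorticoids and oxidants, were higher in all 4 DBA room-air lungs. They lie beside each other on chromosome 8. Their metal response depends in part on short elements bound by the zinc-sensing factor MTF1, so the 250 bases before each start are shown, with the cores TGCACNC and TGCGCNC, searched on both strands, in capitals.
Mt1, chr8:94178839-94179088, plus strand: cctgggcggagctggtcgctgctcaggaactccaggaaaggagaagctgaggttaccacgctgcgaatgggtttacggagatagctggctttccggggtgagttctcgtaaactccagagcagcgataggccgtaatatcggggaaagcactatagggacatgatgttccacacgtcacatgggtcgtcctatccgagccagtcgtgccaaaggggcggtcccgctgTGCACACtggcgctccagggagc
Mt2, chr8:94172368-94172617, plus strand: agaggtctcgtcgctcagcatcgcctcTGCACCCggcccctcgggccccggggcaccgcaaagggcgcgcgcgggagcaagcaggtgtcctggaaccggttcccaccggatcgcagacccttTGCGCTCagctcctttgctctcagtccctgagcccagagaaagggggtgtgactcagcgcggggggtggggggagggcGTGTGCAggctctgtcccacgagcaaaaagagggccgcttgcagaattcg
Both windows are RefSeq sequence of GRCm38.p6, the assembly of the C57BL/6J strain. The Mt1 window holds 1 core, 23 bases before the start, and the Mt2 window holds 3, of which the one nearest the start reads as its reverse complement. Over 32851 windows of the same length, 21.4% hold at least 1 core and 1.26% at least 3. A match describes the letters and is not evidence of a bound site.

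Mt1 was at 28.4, 24.9, 23.0 and 17.0 TPM in B6 and at 116, 97.9, 185 and 182 TPM in DBA (log2 fold change 2.56 ± 0.20, adjusted p = 1.25e-07). Mt2 was at 7.01, 10.7, 7.33 and 7.73 TPM in B6 and at 77.8, 70.7, 163 and 115 TPM in DBA (3.49 ± 0.21, adjusted p = 7.92e-09). For both genes the lowest DBA library was well above the highest B6 library. In the second set of room-air B6 lungs Mt1 was at 71.2 and 84.4 TPM and Mt2 at 20.9 and 25.8 TPM. These values were above every B6 library of the comparison and below every DBA library. Lungs labelled Trem2 knockout had Mt1 at 18.2 to 41.9 TPM and Mt2 at 8.50 to 13.1 TPM. In hyperoxia Mt1 averaged 107 TPM in B6 and 117 TPM in DBA (0.12, adjusted p = 0.672), and Mt2 averaged 30.8 and 50.2 TPM (0.68, adjusted p = 0.0205). The strain difference in Mt2 was smaller in hyperoxia than in room air by 2.81 on the log2 scale (interaction adjusted p = 6.69e-05).

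The metallothioneins belong to a list of 25 glucocorticoid-responsive genes, all tested, of which 19 were higher in DBA (against 21.5% of all genes) and 1, Lcn2, was lower. The list's median log2 fold change was 1.25. Cebpd, a transcription factor of the acute response, averaged 23.0 ± 8.54 TPM in B6 and 102 ± 18.9 TPM in DBA (2.17). Fam107a, an actin-binding stress protein, averaged 1.85 and 11.1 TPM (2.06), and Tsc22d3, the leucine zipper protein GILZ, 150 and 428 TPM (adjusted p = 7.74e-05). Fkbp5, a chaperone that feeds back on the glucocorticoid receptor, was at 4.84, 5.94, 7.32 and 5.58 TPM in B6 and at 16.4, 9.78, 19.6 and 5.78 TPM in DBA. Its groups overlapped, with DBA library 4 inside the B6 range (0.89, adjusted p = 0.0267), and its adjusted p rose to 0.0969 without DBA library 3 and to 0.0813 without DBA library 1. In hyperoxia the direction was the opposite: Fkbp5 averaged 74.0 TPM in B6 and 12.5 TPM in DBA (-2.56), and the interaction was -3.44 (adjusted p = 0.000211). In room air Tsc22d3 was at 279 and 329 TPM in the second B6 set and at 196 to 328 TPM in lungs labelled Trem2 knockout. Its DBA range was 252 to 544 TPM. Fkbp5 was at 8.06 and 9.60 TPM and at 9.41 to 17.6 TPM in those lungs, inside its DBA range. Cebpd and Fam107a stayed below every DBA library there.

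Across that list in hyperoxia, 1 gene was higher and 17 were lower in DBA, beside 23.3% and 22.8% of all genes, with 46.1% called in all. The strain difference itself changed with oxygen for 29.2% of all genes, becoming lower in hyperoxia for 9.20% and higher for 20.0%. In the glucocorticoid list it became lower for 23 of 25 genes and higher for 1. Which hour of day each lung was taken is not given in the labels.

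Many immediate early genes were higher too. Of 24 immediate early genes tested of 27 listed, which respond within minutes to many stimuli, 14 were higher and 0 lower in DBA. Zfp36, an RNA-binding protein that destabilizes cytokine messages, averaged 36.7 ± 6.17 and 126 ± 24.6 TPM (1.74), and Klf2, a flow-responsive endothelial factor, 124 ± 22.7 and 414 ± 49.1 TPM (1.74). Fos, a subunit of AP-1, averaged 9.16 and 29.6 TPM (1.71). With males only, 9 of these genes were called higher. Among 19 clock genes, 7 were higher, 3 lower and 9 not called, beside 21.5% and 34.8% of all genes in each direction, and the lower count was 1 with Scgb1a1 left out. The repressor Per1 averaged 33.7 TPM in B6 and 72.3 TPM in DBA (adjusted p = 0.00122), while the activator Arntl averaged 14.6 and 9.03 TPM (-0.64). Of 5 transcripts tested from a list that follows RNA handling, 4 (Rpph1, Meg3, Malat1 and Kcnq1ot1) were higher in DBA, with the nuclear RNA Malat1 at 155 TPM in B6 and 268 TPM in DBA (0.78). The part of RNA handling in these results was not tested.

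Most cell cycle genes were lower in DBA. Of 40 genes listed and tested, 33 were lower, against 34.8% of all genes, and 1, Cdk2, was higher, with a median log2 fold change of -0.89. Top2a, the topoisomerase of dividing cells, was at 36.0, 28.6, 29.3 and 34.9 TPM in B6 and at 7.44, 9.96, 6.03 and 4.76 TPM in DBA. The groups were widely separated (-2.08 ± 0.17, adjusted p = 1.75e-07). Mcm6, a subunit of the replicative helicase, averaged 26.3 ± 1.49 and 5.60 ± 0.919 TPM (-2.05), and the mitotic checkpoint kinase Bub1b 10.4 and 1.86 TPM (-2.02). Mki67, a marker of cycling cells, averaged 26.3 and 6.64 TPM (-1.85). The second set of room-air B6 lungs had Mki67 at 4.63 and 5.26 TPM, inside its DBA range of 4.31 to 8.82 TPM. In hyperoxia Top2a averaged 32.9 TPM in B6 and 27.9 TPM in DBA (-0.24, adjusted p = 0.295), and for 33 of the 40 genes the DBA minus B6 difference was higher in hyperoxia than in room air by the interaction test.

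Cdkn1a, the cyclin-dependent kinase inhibitor p21 and a main p53 target (chr17:29093769-29100722, plus strand), was at 22.1, 24.6, 26.8 and 29.3 TPM in B6 and at 102, 100.9, 148 and 57.6 TPM in DBA. Every DBA library exceeded every B6 library (1.88 ± 0.22, adjusted p = 5.27e-06). In hyperoxia it averaged 372 TPM in B6 and 168 TPM in DBA (-1.16), and the interaction was -3.04 (adjusted p = 6.01e-05). Trp53 itself, which encodes p53, averaged 37.6 ± 3.67 and 34.8 ± 6.17 TPM in room air (-0.12, adjusted p = 0.449). The wider list of 48 tested p53 target genes was mixed in room air, with 13 higher and 15 lower, near the shares of all genes, and a median of 0.09: Plk3, a stress kinase, averaged 5.09 and 13.1 TPM (1.21) and Bbc3, the death gene PUMA, 8.14 and 18.2 TPM (1.08), while Ckap2, a spindle protein, averaged 10.6 and 4.42 TPM (-1.14). With Scgb1a1 left out the list counted 16 higher and 11 lower. Trem2, the lipid receptor of macrophages, averaged 3.17 ± 0.703 and 2.32 ± 1.40 TPM, with overlapping libraries (-0.40, adjusted p = 0.207). Without DBA library 4 it was called lower (-0.65, adjusted p = 0.0294).

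**Figure D4:**
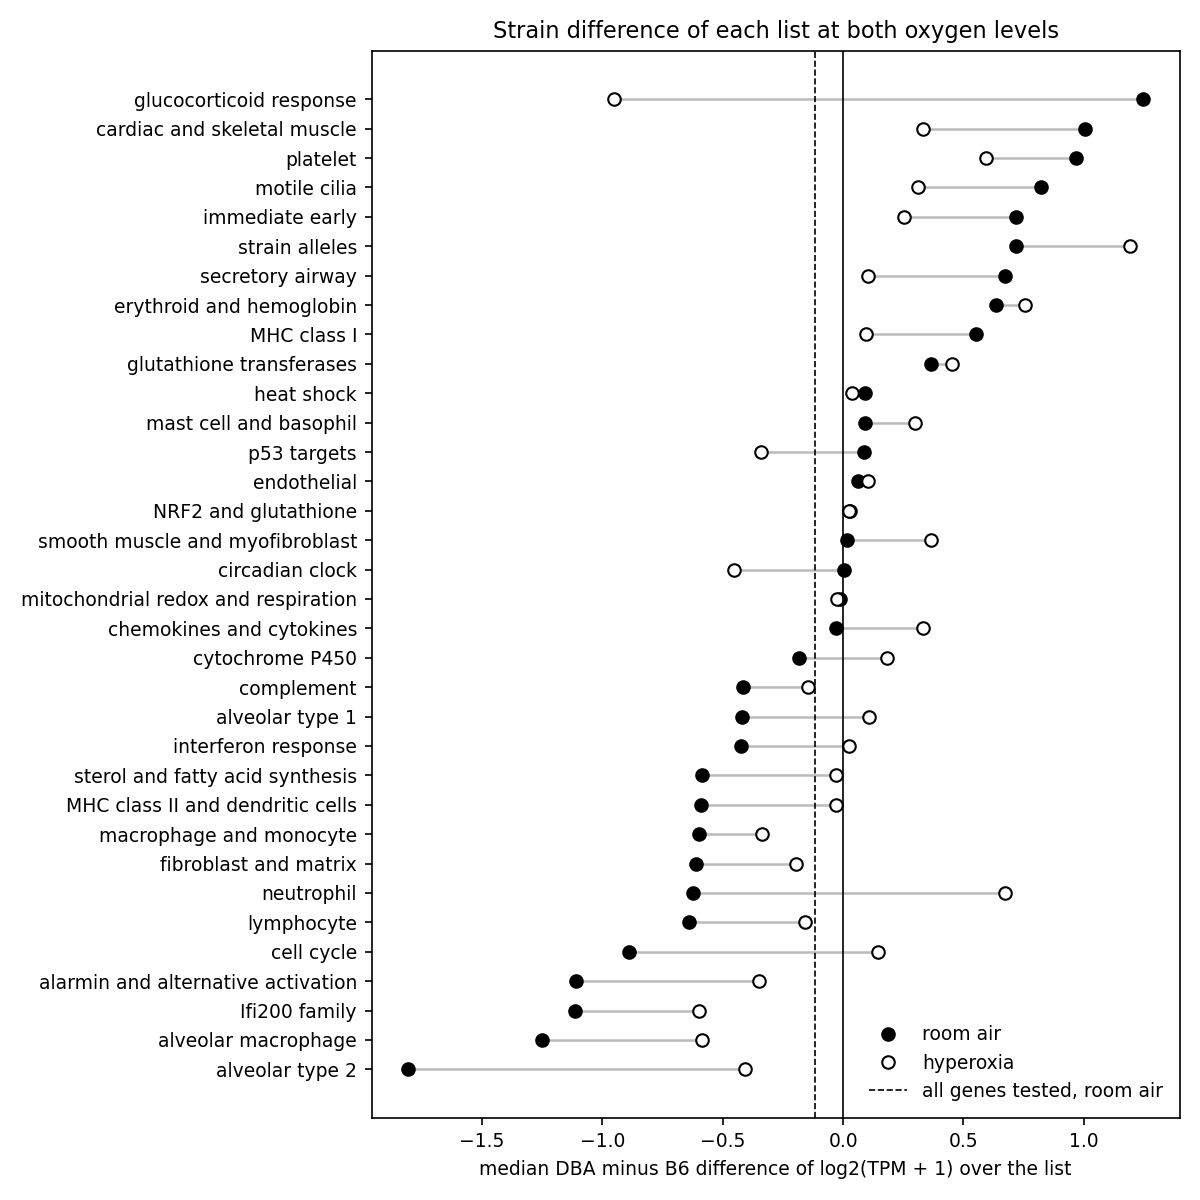
Median log2 fold change of DBA against B6 (x axis) for each gene list (y axis), filled for room air and open for hyperoxia. The dashed line marks the room-air median of all genes, -0.12. Glucocorticoid genes move from 1.25 to -0.95 and cell cycle genes from -0.89 to 0.15.

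Motile cilia genes were mostly higher in DBA, and genes of secretory airway cells were divided. In the secretory list, 26 of 30 genes were tested, with 11 higher, Scgb1a1 among them, 5 lower and 10 not called. Cyp2f2, the club cell cytochrome P450, was at 303, 378, 305 and 299 TPM in B6 and at 1238, 829, 1852 and 2913 TPM in DBA. DBA was higher in every library, again most in those of the later date code (2.26 ± 0.33, adjusted p = 3.93e-05). Scgb3a2, a secretoglobin of the distal airways, averaged 537 and 1820 TPM (1.70), with an adjusted p of 0.0568 without the DBA libraries of the later date code. The 5 lower members, Sftpa1, Retnla, Lyz1, Sftpd and Upk1b, include products also made by alveolar cells or macrophages. Of 28 motile cilia genes tested of 30 listed, 16 were higher and 1, Tuba1a, lower, with a median log2 fold change of 0.82. Foxj1, the transcription factor that sets up motile cilia, was at 10.0, 13.3, 12.8 and 7.86 TPM in B6 and at 31.1, 24.4, 36.0 and 47.6 TPM in DBA. Those groups did not overlap (1.56 ± 0.30, adjusted p = 0.000464), and Sntn, a protein of the ciliary tip, averaged 3.71 and 21.8 TPM (2.15). Without the DBA libraries of the later date code, the median was 0.44 for cilia with 12 higher and 0.30 for the secretory list with 6 higher; with those of the earlier code left out instead, they were 1.23 with 20 higher and 0.96 with 11 higher.

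Most alveolar type 2 genes were lower in DBA. All 20 listed genes were tested, 17 were lower, 1 was higher and the median log2 fold change was -1.81. Sftpc, surfactant protein C, was at 17082, 19159, 27302 and 23132 TPM in B6 and at 10152, 9602, 7069 and 5084 TPM in DBA. No library overlapped (-1.47 ± 0.33, adjusted p = 0.0015, or 0.313 with no filter on low values), and the 2 DBA libraries with the most Scgb1a1 were the 2 with the least Sftpc. Sftpa1, surfactant protein A, averaged 976 ± 253 and 123 ± 33.5 TPM (-2.98). Slc34a2, the phosphate transporter of type 2 cells, averaged 726 ± 29.8 and 149 ± 30.5 TPM (-2.30), and Chil1, a chitinase-like secreted protein, 402 ± 56.3 and 33.5 ± 18.9 TPM (-3.67). Sftpb, surfactant protein B, averaged 1653 and 1460 TPM, with overlap (-0.19, adjusted p = 0.337). The member that was higher was Nkx2-1, the lung lineage transcription factor, at 87.1 and 161 TPM (0.86). For 12 of the 20 genes the DBA minus B6 difference was higher in hyperoxia by the interaction test, with 9 genes lower and 3 higher there. Of 15 alveolar type 1 genes, 8 were lower and 2 higher, and with Scgb1a1 left out 8 were lower and 5 higher. The proteoglycan Spock2, a lower member, was at 155 and 50.3 TPM (-1.69).

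Matrix genes followed the same direction: of 43 fibroblast and matrix genes tested, 25 were lower and 3, Dcn, Gdf10 and Lum, were higher, with a median of -0.61. Fn1, fibronectin, was at 586, 376, 307 and 359 TPM in B6 and at 117, 145, 113 and 82.3 TPM in DBA. All DBA libraries were lower (-1.81 ± 0.21, adjusted p = 4.52e-06). Col4a1, a basement membrane collagen chain, averaged 850 ± 174 and 307 ± 100.4 TPM (adjusted p = 0.000108), while Col1a1, fibrillar collagen I, averaged 316 and 370 TPM without passing (adjusted p = 0.406). Of the 27 endothelial genes, 6 were higher, 5 lower and 16 not called, with a median of 0.06. These counts became 8 higher and 2 lower with Scgb1a1 left out and 10 and 3 after quantile normalization. Without the DBA libraries of the later date code they gave 8 higher and 1 lower, and without those of the earlier code 3 and 7. Kdr, the main VEGF receptor, averaged 152 ± 22.5 and 62.4 ± 24.3 TPM (-1.33), whereas Ramp2, the partner of the adrenomedullin receptor, averaged 281 ± 22.9 and 759 ± 67.7 TPM (1.43). Of 16 smooth muscle genes, 2 were higher and 1 lower.

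**Figure D5:**
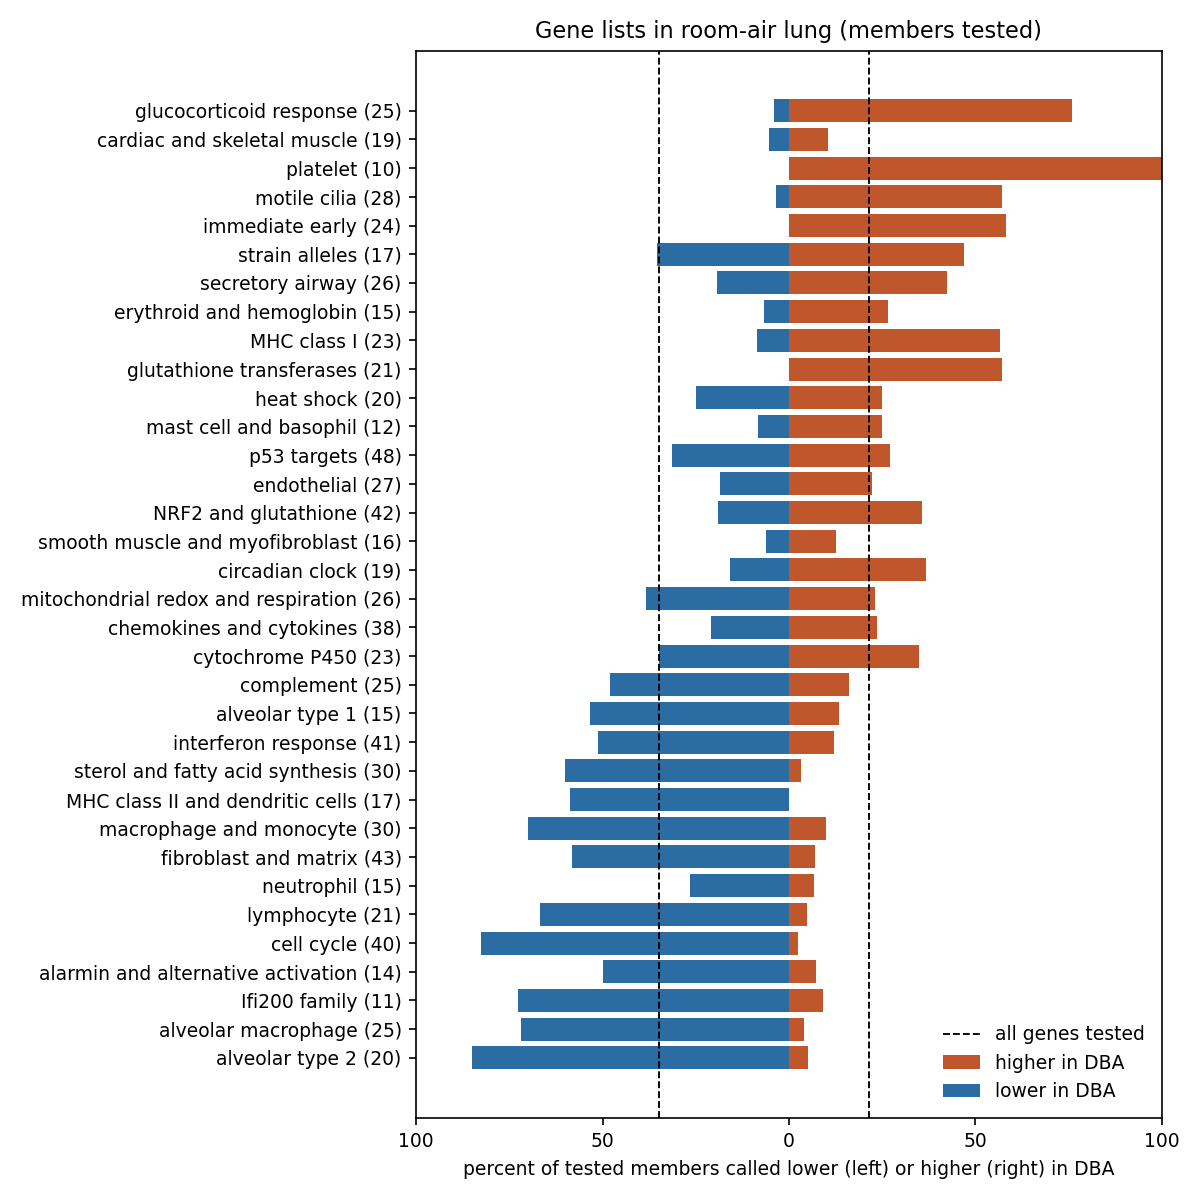
Percent of tested members called lower (left) and higher (right) in DBA room-air lung for each gene list with at least 10 tested members. Dashed lines mark the shares over all genes, 34.8% lower and 21.5% higher.

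Most macrophage and lymphocyte genes were lower in DBA. The leukocyte gene Ptprc, which encodes CD45, was at 26.5, 29.5, 30.6 and 31.8 TPM in B6 and at 9.24, 9.93, 10.1 and 12.5 TPM in DBA (-1.42). Of 25 alveolar macrophage genes tested, 18 were lower and 1 higher. Marco, a scavenger receptor, was at 10.1, 16.8, 10.98 and 8.38 TPM in B6 and at 0.223, 0.795, 0.81 and 0.435 TPM in DBA. The 2 ranges lay far apart (-2.98 ± 0.32, adjusted p = 2.77e-06). Ear2, an eosinophil-associated ribonuclease also made by alveolar macrophages, averaged 82.9 ± 19.6 and 11.5 ± 2.75 TPM (-2.74), and Siglecf, the lectin of alveolar macrophages and eosinophils, 3.44 and 0.311 TPM (-1.73). In BMDM, Marco ran the other way, at 0.682 and 0.47 TPM in B6 and at 18.4 and 19.1 TPM in DBA. The 30 broader macrophage and monocyte genes held 21 lower and 3 higher, or 16 and 4 with Scgb1a1 left out. Lyz2, lysozyme M of macrophages and type 2 cells, averaged 3742 ± 1068 and 804 ± 177 TPM (-2.20), and Tyrobp, the adaptor of Trem2 and related receptors, 58.1 and 21.1 TPM (-1.42).

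Lymphocyte genes showed 14 lower and 1 higher of 21 tested. Ms4a1, the B cell protein CD20, was at 13.3, 16.4, 25.9 and 25.7 TPM in B6 and at 1.87, 2.09, 2.51 and 1.47 TPM in DBA. The groups did not overlap (-2.80 ± 0.20, adjusted p = 6.27e-08). Class II and dendritic cell genes had 10 of 17 lower and 0 higher, with the invariant chain Cd74 at 660 and 265 TPM (-1.33). Of 41 interferon-response genes tested, 21 were lower and 5 higher, among them the GTPase Iigp1 at 45.8 and 14.0 TPM (-1.64) and Xaf1, an apoptosis factor, at 12.6 and 37.3 TPM (adjusted p = 1.36e-07). That count of lower genes was 17 with Scgb1a1 left out and 9 with males only. Males only also gave 9 lower lymphocyte genes and 6 lower class II and dendritic cell genes. Of 15 neutrophil genes tested of 19 listed, 4 were lower, 1 higher and 10 not called, so the lower share was below that of all genes. The lower ones were S100a9, Retnlg, Mmp9 and Lcn2, and 2 were lower with males only.

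Platelet genes were higher in DBA. All 10 platelet genes tested, of 12 listed, were higher in DBA. Ppbp, a platelet chemokine, was at 1.57, 3.74, 4.52 and 9.53 TPM in B6 and at 23.1, 19.2, 69.5 and 56.3 TPM in DBA. DBA exceeded B6 throughout (2.86 ± 0.41, adjusted p = 3.32e-05). The summed level of the platelet list was 31.2 to 46.8 TPM in B6 and 76.3 to 180.8 TPM in DBA. The erythroid list summed to 879 to 10821 TPM in B6 and 10517 to 38584 TPM in DBA, so its groups overlapped. Of its 15 tested genes, 4 hemoglobin entries were higher, 1 gene, Car2, was lower and 10 were not called, near the background. The 4 are Hba-a1 with Hba-a2 and Hbb-bs with Hbb-b1. Each pair has overlapping positions and nearly equal values, so the 4 stand for 2 loci. The higher count was 2 after quantile normalization, 2 without the DBA libraries of either date code and 9 with males only. Alas2, the first enzyme of erythroid heme synthesis, averaged 67.6 and 86.3 TPM (adjusted p = 0.442). Cardiac and skeletal muscle genes summed to 63.8 to 109 TPM in B6 and 88.7 to 546 TPM in DBA, with Actc1 and Acta1 called higher and Myh7 lower among 19 tested. Neither Actc1 nor Acta1 was called with males only. The part of residual blood and of attached heart tissue in the other results was not tested.

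Among detoxifying enzymes, 12 of 21 tested glutathione transferase genes were higher in DBA and 0 lower, and in hyperoxia 11 were higher and 0 lower. Gstm1 averaged 76.8 ± 8.56 and 184 ± 50.0 TPM (1.22), and Gsta2 0.97 and 6.08 TPM (1.79). In the second set of room-air B6 lungs Gstm1 was at 218 and 197 TPM, inside its DBA range of 150 to 256 TPM. Its difference was therefore not shared by all room-air B6 lungs. Gsta2, at 2.46 and 1.07 TPM there, was below every DBA library. Of 23 cytochrome P450 genes tested, 8 were higher and 8 lower, the lower share being that of all genes, with the higher ones led by Cyp2b10, Cyp2a5 and Cyp2f2. The 42 NRF2 and glutathione genes, targets of the main antioxidant factor, gave 15 higher and 8 lower with a median of 0.03. Genes of sterol and fatty acid synthesis were lower in 18 of 30 tested and higher in 1. Acaca, the enzyme that makes malonyl-CoA, was at 7.98, 6.87, 6.44 and 6.77 TPM in B6 and at 1.202, 1.405, 1.165 and 1.235 TPM in DBA. Its groups were far apart (-1.83 ± 0.15, adjusted p = 1.91e-07). Scd1, which desaturates fatty acids, averaged 344 ± 85.5 and 78.2 ± 19.8 TPM (-2.12).

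The strain difference was compared with other tissues and airs that share no library with it. Of the 8804 genes called in room air, 77.5% (6827) had the same sign in hyperoxic lung, and of the 4726 called in both, 88.0% did. Room-air and hyperoxic DBA lungs share both of their date codes. The hyperoxic B6 lungs all carry the date code of B6 libraries 1 and 2. None carries that of B6 libraries 3 and 4, so air and date code are partly tied in B6. In BMDM, with 2 libraries a strain, 56.8% of 12320 tested genes were called between the strains, and 46.6% (3235 of 6940) of the lung's room-air calls found there had the same sign. The BMDM calls were 5011 higher and 1992 lower in DBA, whereas the lung calls were 3365 higher and 5439 lower. These opposite splits lower the share of equal signs, so 46.6% does not show opposed responses. B6 and DBA BMDM share no date code either. In all 3 settings, 132 genes were called with a log2 fold change of at least 1 in either direction, and 99 kept 1 sign, 48 higher and 51 lower. Of those 99, 24 lie on chromosome 17, where 797 of the tested genes lie, among them H2-Ea-ps, H2-Q10 and H2-Q6. Some entries overlap in position with nearly equal values, such as H2-Q6 with H2-Q8 and Eif3j1 with Eif3j2. The counts of 99 and 24 therefore hold some genes more than once. Sftpa1 and Slc34a2, which are surfactant cell genes, were at 0 TPM in all 4 of these BMDM libraries.

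The other room-air lungs on the B6 side were set beside these without a test. The table with the lungs labelled Trem2 knockout repeats the 7 B6 lung columns with identical values over 24396 shared transcripts, while the second B6 set has a table of its own. Libraries 1 and 2 labelled knockout carry the date code of B6 libraries 3 and 4. No library labelled knockout carries a DBA lung date code, so strain and date code again cannot be told apart. The second set has no date code. The genes compared were called with the same DBA libraries. Of genes called lower in DBA, all 4 libraries labelled knockout lay above every DBA library for 72.4% (3860 of 5331 compared), and both second-set libraries did for 39.6% (2094 of 5285). For those called lower with a log2 fold change of at least 1 in size, these shares were 91.4% and 55.1%. Of genes called higher in DBA, the libraries lay below every DBA library for 76.3% and 71.2%. Alad was at 9.13 to 10.3 TPM in the lungs labelled Trem2 knockout and at 12.3 and 8.45 TPM in the second B6 set, beside 9.54 to 10.7 TPM in B6 and 32.1 to 40.2 TPM in DBA. Sftpa1 was at 1134 to 1500 TPM in the knockout and at 1076 and 1075 TPM in the second set. For both genes all 10 lungs that are not DBA lay on the same side of the DBA libraries. Fn1, at 399.6 to 478 TPM in the knockout, was at 171 and 142 TPM in the second set, nearer to DBA. Hba-a1, an alpha-globin gene, was at 8788 and 21470 TPM in the second set, above its DBA mean of 5404 TPM. For these 2 genes the second B6 set lay near DBA or beyond it. Other genes named above did so too. In the second set Mki67 was at 4.63 and 5.26 TPM, Spock2 at 50.7 and 61.1 TPM and Kdr at 65.2 and 72.5 TPM, inside their DBA ranges. Col4a1, at 151 and 173 TPM, was below its lowest DBA library at 220 TPM. Such differences were therefore not shared by all room-air B6 lungs.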

How the data were processed

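RNA was measured by poly(A) RNA-seq in whole lungs and BMDM, per the labels' protocols. The TPM values, abundances corrected for transcript length and scaled to a fixed total, were made by the authors with HOMER from STAR alignments to mm10, per the submitters' processing notes, which also list Bowtie2; the sources used here give no versions. The deposited TPM of a library's listed transcripts sum to 529340 to 575810 in the 8 room-air lungs, so the scaling included transcripts outside the table. The authors deposited a transcript length beside each value. With it, 100% of values were whole multiples of 1 read per library at a tolerance of 0.15 read, which gave the depths; no count test was run.

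From these values, log2(TPM + 1) was fitted with limma 3.58.1 (R 4.3.3, trend) over the 15 lung libraries of the 4 strain and air groups of the table, for genes with at least 1 TPM in 3 libraries. Adjusted p-values are Benjamini-Hochberg over all genes tested, with calls at 0.05; BMDM were fitted likewise with 2 libraries at the minimum. Errors after log2 fold changes are SE, those after means are SD of 4 libraries. SciPy 1.17.1 gave the permutation test, and pandas 2.3.3 and matplotlib 3.10.9 the summaries and plots. The fit was tested on simulated data. Alternatives were other scalings, pseudocounts, filters and subsets of libraries. A fit with date code as a term was not possible, since the strains share none.

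Named genes are Scgb1a1, Trem2, Trp53, Cdkn1a, genes with known strain alleles, the 12 largest rises and 12 largest falls without overlap at 5 TPM or more in the higher group, and up to 4 called members of each of 39 lists. Others were chosen after their values were seen: the markers of lung identity and RNA handling, Fkbp5, Tsc22d3, Sftpc, Sftpb, Nkx2-1, Col1a1, Foxj1, Scgb3a2, Mki67, Ptprc, Alas2, Mlycd, Tyrobp, Siglecf, Car2 and H2-K1. Some genes that these rules would name are not reported here. The comparison and the lists were chosen with earlier results of these data known. Members that did not reach the minimum were not tested.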

Additional observations from a re-analysis of the deposited data

Results flagged for a closer look

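For 43 named genes, the lowest and highest library of each room-air group was set against the other 3 libraries with Dixon's test. Chance flags about 1 in 20 groups, or 4.3 of the 86 groups examined, and 6 were flagged. The highest B6 library of Scgb1a1 was at 10909 TPM, beside 7635 to 7889 TPM in the others. The highest DBA library of C7 was at 8.669 TPM, beside 2.98 to 3.52 TPM. Zfp970, a zinc finger gene, was at 0.198 TPM in its highest DBA library and at 0.089 to 0.105 TPM in the others. The remaining 3 had all other libraries at 0: Serpina1b at 0.073 TPM and Ifi202b at 0.35 TPM in a B6 library, and Klrd1 at 0.2 TPM in a DBA library.

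For 17 of these genes the DBA against B6 difference in hyperoxia differed from that in room air (limma interaction, adjusted p under 0.05). The values are hyperoxia minus room air on the log2 scale. It was negative for Cdkn1a (-3.04), Mt2 (-2.81), Gpnmb (-1.38), Rpl29 (-0.73) and Tmem181c-ps (-0.59). It was positive for Ndnf (3.10), Mir1903 (2.69), Mndal (1.43), C7 (1.018), Apoa2 (1.002), Trp53 (0.89), Ahr (0.86), Ifi202b (0.71), Nnt (0.61), Alad (0.60), Hmgn2 (0.58) and Glo1 (0.56). Of all genes tested, the same interaction test called 29.2%, with a positive value for 20.0% and a negative one for 9.20%. The lean of the named genes to positive values was therefore also that of all genes. Mir1903, Rpl29 and Hmgn2 have close copies or lie within other transcripts, which makes their levels uncertain.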

How the results depend on the processing

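The count of 8804 genes called in room air stayed within 1.5 times under every scaling, pseudocount, filter and subset of libraries tried, from 6960 to 9008. The exception is a stricter rule that also asks for a log2 fold change of at least 1 in either direction, which gave 1850. Leaving out each library in turn gave 7989 to 8873, a sex term 7930 and males only 7266. Chosen after seeing the data, leaving out the DBA libraries of the later or the earlier date code gave 6960 and 8456. The split of higher and lower calls moved with the scaling, to 4387 against 4315 with median-of-ratios scaling, which centres the median by construction. The Scgb1a1 share differed by 8.30 to 12.55 percentage points with 1 library left out, where 3 against 4 libraries cannot go below p = 0.0571 in the exact permutation test. The share of lung calls with the same sign in BMDM, 46.6%, was 49.0% with Scgb1a1 left out and 49.8% after quantile normalization. Over 3641 repeats for 183 named genes, 0 reversed, 133 lost and 11 gained a call, and for 155 genes the call or its absence held throughout. No paired analysis was possible because the numbers in the lung column names restart within each date code and no label ties a column to a numbered replicate. The DBA libraries are the shallower ones, so genes near 1 TPM rest on fewer reads there.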

Other observations

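Of 12 mast cell and basophil genes tested of 17 listed, 3 were higher and 1 lower in DBA, beside 21.5% and 34.8% of all genes. Mcpt2, a mast cell protease, was at 0 TPM in all 4 B6 room-air libraries and averaged 2.19 ± 1.35 TPM (SD) in DBA, and it was also at 0 TPM in the 6 second-set lungs and lungs labelled Trem2 knockout. Gata2, a factor of mast cells, endothelium and blood progenitors, averaged 44.8 ± 3.11 and 115.2 ± 20.1 TPM (log2 fold change 1.33). Of 28 natural killer genes listed, mostly Ly49 receptors, 6 reached the minimum level, with 3 lower and 0 higher.

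Heat shock genes went both ways, with 5 of 20 higher and 5 lower, near or below the shares of all genes. Hspa1b, the inducible chaperone, was at 2.08, 1.16, 4.21 and 1.90 TPM in B6 and at 22.2, 8.56, 8.95 and 9.78 TPM in DBA (1.97). The groups did not overlap. Hspa8, its constitutive relative, averaged 318 ± 50.6 and 100.9 ± 39.5 TPM (-1.71), and it was also lower in DBA macrophages, at 121.9 and 104.4 TPM against 419.6 and 389.5 TPM.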
